A study of Mus musculus with 59 samples.

Results

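The Zfp900 to Zfp999 genes are zinc finger genes of the mouse whose symbols were given in sequence, late in the naming of the family. Members were taken as every symbol made of Zfp9 and exactly 2 further digits, without Zfp951, which was left out. The gene tables listed 63 such symbols among 51810 to 51812 genes. A gene was tested in a table where its mean normalised read count was 10 or more. Of the 63 members, 48 reached this level in at least 1 of the 6 tables tested and 37 in all 6.

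C2H2 zinc finger proteins bind DNA through a row of short fingers, each folded around a zinc ion. Many of the mouse genes also encode a KRAB domain, which recruits the corepressor Trim28 and the histone methyltransferase Setdb1, and the pathway is best known for silencing transposable elements through H3K9 trimethylation. The family has grown by local duplication, so its genes often lie in clusters of closely related copies. Daxx, the gene deleted here, encodes a chaperone that works with Atrx to place histone H3.3 in silent chromatin, and Pu.1 (gene Spi1) is a transcription factor of myeloid and lymphoid cells.

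RNA-seq was made from sorted mouse bone marrow cells of the C57BL/6 background. KLS cells (Kit+, lineage-negative, Sca1+) hold the stem cells and multipotent progenitors, and GMPs are the granulocyte and monocyte progenitors that follow. All groups carried 1 copy of Cre (Cre +/-). The genotypes were Daxx +/+ (WT), Daxx F/F (Daxx-KO), Daxx F/F with Pu.1 F/F (DKO) and, in a separate line, Pu.1 +/+ (WT) and Pu.1 F/F (Pu.1-KO). The labels name Mx1Cre, a Cre under the interferon-responsive Mx1 promoter that is switched on by injected pI:pC and is not limited to blood cells, for the mice taken 3 or 24 weeks after the end of induction (w.p.i.). They give neither the Cre driver nor the time for a further set, called untimed here, which the study's methods describe as donor-derived cells sorted from transplanted mice. By those methods the donors carried Mx1Cre, and their marrow was given with support marrow cells to lethally irradiated recipients. The recipients were taken over a range of weeks after transplantation. The untimed KLS and GMP tables each held 2 WT and 2 Daxx-KO libraries. The tables at 3 w.p.i. each held 3 WT, 3 Daxx-KO and 2 DKO libraries, and those of the Pu.1 line 2 WT and 2 Pu.1-KO libraries at 3 w.p.i. as well. At 24 w.p.i. only the 2 WT libraries per cell type were used. A WT library of each 3 w.p.i. table, called unnumbered in KLS cells, and the Pu.1 line and 24 w.p.i. libraries were tied to a genotype by the control or treatment mark on a repeat column of the same library. Mice were usually given pI:pC at 5 to 11 weeks of age, by the study's methods. The age of each mouse was not given in the sources used here. By the same methods the line with Daxx F was C57BL/6N, whereas the Mx1Cre line and that with Pu.1 F were C57BL/6J. The part of substrain in the member differences was not tested. The labels do not say that every library came from a separate animal, so p-values measure the spread between these libraries. The study's methods name 2 or 3 biological replicates for its genomic assays, and its legends count mice. In bulk RNA fewer cells of a type and less RNA per cell cannot be told apart.

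The libraries held 3388906 to 29335964 reads assigned to genes. In the untimed set the library Daxx-KO 2 was the deepest of each cell type, at 22647397 reads in KLS cells and 17307510 in GMPs, against 3388906 to 7067939 in the others. Daxx (chromosome 17, 33909414 to 33915590) was lower in every comparison of Daxx-deleted with WT libraries, by 1.98 to 3.19 on the log2 scale, and every one passed the test. Spi1 rose in untimed Daxx-KO cells, by 1.42 in KLS cells and 0.86 in GMPs, and passed in both. At 3 w.p.i. it did not pass between Daxx-KO and WT (-0.27 in KLS cells and -0.14 in GMPs). In the KLS libraries labelled DKO it was 3330 and 2990 against 1670 to 2320 in WT. This was a rise of 0.76 against WT and 1.03 against Daxx-KO (limma with Benjamini-Hochberg adjustment, adjusted p = 0.016 and 0.0035). In the GMP libraries labelled DKO Spi1 differed from WT by -0.26 and did not pass. In the libraries labelled Pu.1-KO it differed from WT by -0.30 in KLS cells and -0.46 in GMPs (adjusted p = 0.75 and 0.15 by limma). Counts over the whole gene do not show whether the deleted exons are missing, so those libraries are named by their labels. The stem cell, GMP and neutrophil marker lists had every gene above 0 in every genotype of these tables.

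The 63 members lay on 12 chromosomes of GRCm38 (mm10). By the GENCODE M21 models 62 were protein coding, and Zfp939 was a transcribed pseudogene. With neighbours at most 500 kb apart counted together, 41 members formed 6 clusters of 3 or more. The largest was a run of 16 on chromosome 4 (145510759 to 147848366, 2.338 Mb), followed by 10 on chromosome 17 (21567008 to 22867134). Chromosome 2 held a pair of clusters of 4 (175372436 to 175931100 and 177464733 to 178078476), chromosome 7 a cluster of 4 (42579783 to 43192109) and chromosome 8 a cluster of 3 (69209038 to 69749970). Daxx itself is on chromosome 17, as are 13 members, and the nearest of them, Zfp952, was 0.904 Mb away.

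The predicted proteins of the 60 members with a complete coding sequence held 0 to 21 C2H2 fingers, with a median of 11, and Zfp974 held the most. No finger of this pattern was found in Zfp935, Zfp957, Zfp972 or Zfp993. Because copies are so alike, reads may fall on the wrong gene. Of the windows of 100 bases along each member's exons, a median of 5.4% also occurred exactly in another gene. The share was over 10% in 28 members and, after rounding, 0.0% in 15. Exons of 12 members overlap those of another gene, so not every shared window lies in a separate copy. Of the members tested and described below, Zfp935 shared 99.3% (most with Gm49359), so its reads cannot be assigned with certainty. Its exons overlap those of Gm49359 and Zfp934 on the same strand. Zfp973 shared 73.2%, Zfp987 70.8%, Zfp986 70%, Zfp963 36.2% and Zfp972 32% (most with Gm14392). Zfp984 shared 30.9% (most with Gm13212), Zfp971 22.1% and Zfp979 21.5% (most with Zfp600). Zfp963, Zfp973 and Zfp984 also overlap another gene on the same strand.

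The 4 members of the chromosome 4 cluster that were lower in untimed Daxx-KO KLS cells are shown here by the 300 bases around their RefSeq start sites (GRCm38.p6, 250 bases before the start and 50 after it). They were chosen because they are consecutive among the members, with other genes between them, and their windows are related. The windows are read 5′ to 3′ on the gene's strand, and the capitals mark the longest run of bases present in all 4, 16 bases long.
Zfp982 (chr4:147492167-147492466, + strand): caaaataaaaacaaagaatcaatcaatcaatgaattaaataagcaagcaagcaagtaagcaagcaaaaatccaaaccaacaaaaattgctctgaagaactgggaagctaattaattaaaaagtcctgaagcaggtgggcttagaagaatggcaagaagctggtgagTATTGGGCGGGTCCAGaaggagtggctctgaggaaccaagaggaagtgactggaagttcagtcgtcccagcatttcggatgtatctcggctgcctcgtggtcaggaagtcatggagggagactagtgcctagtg
Zfp985 (chr4:147553027-147553326, + strand): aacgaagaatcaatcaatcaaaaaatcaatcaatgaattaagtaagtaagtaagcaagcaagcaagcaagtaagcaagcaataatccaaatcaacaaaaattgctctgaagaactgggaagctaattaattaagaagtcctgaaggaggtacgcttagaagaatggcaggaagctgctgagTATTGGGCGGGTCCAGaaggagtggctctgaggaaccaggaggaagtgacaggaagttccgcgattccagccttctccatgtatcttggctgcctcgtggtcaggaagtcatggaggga
Zfp979 (chr4:147642459-147642758, - strand): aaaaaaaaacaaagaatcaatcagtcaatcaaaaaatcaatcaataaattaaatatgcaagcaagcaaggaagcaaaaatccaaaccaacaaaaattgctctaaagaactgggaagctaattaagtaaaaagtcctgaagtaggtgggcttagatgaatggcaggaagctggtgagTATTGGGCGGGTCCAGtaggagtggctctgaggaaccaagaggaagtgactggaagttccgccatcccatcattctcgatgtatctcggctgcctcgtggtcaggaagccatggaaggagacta
Zfp984 (chr4:147809739-147810038, - strand): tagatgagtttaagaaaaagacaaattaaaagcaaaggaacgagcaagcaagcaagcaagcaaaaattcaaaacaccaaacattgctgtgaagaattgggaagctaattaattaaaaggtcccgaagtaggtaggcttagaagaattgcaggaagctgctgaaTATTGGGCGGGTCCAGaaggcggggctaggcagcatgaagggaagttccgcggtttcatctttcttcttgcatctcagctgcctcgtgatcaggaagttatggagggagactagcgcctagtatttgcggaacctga

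The shared run TATTGGGCGGGTCCAG began 74 bases before the start of Zfp979, 84 before that of Zfp982, 87 before that of Zfp984 and 69 before that of Zfp985. The windows of Zfp979 and Zfp982 were 85.3% identical, and that of Zfp984 was the most distant, at 67.0 to 72.0% identity to the other 3. Each window held 5 to 9 CG dinucleotides and 42.3 to 44.7% G and C. Searched on both strands, the run was also in the windows of Zfp980 and Zfp988, so that 6 of the 10 cluster members with a window held it. None of 43 members elsewhere did, 1 of 276 other numbered Zfp genes did (Zfp600), and 9 of 27025 genes did in all, 0.0333%. The 4 genes were used to find the run, so its presence in them is given by the search. Zfp980 and Zfp988 had 0 reads in all libraries, and in untimed GMPs Zfp982 and Zfp984 overlapped WT. Whether the run has a part in the differences between genotypes was not tested.

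In WT cells Zfp984 was the most abundant member once the normalised count was divided by exon length. Its WT mean was the highest of the members in all 8 tables, from 133 per kb in GMPs of the Pu.1 line to 497 per kb in KLS cells at 24 w.p.i. Zfp935 ranked next in the tables at 3 and 24 w.p.i. and of the Pu.1 line, at 115 to 326 per kb, with the limit on its reads given above. By mean normalised count over all libraries of a table, altered genotypes included and without division by length, Zfp950 led 7 of the 8 tables and Zfp984 the other. Zfp942, Zfp943 and Zfp934 were also often among the top 5, joined in single tables by Zfp945 and Zfp961 and in a pair of tables by Zfp933. Beside their family, members were higher in some tables and lower in others. The median over members was 36.8 per kb in untimed KLS cells, against 27.8 for other numbered Zfp genes and 46.3 for all genes. At 3 w.p.i. it was 66.4 per kb in KLS cells, against 62.6 and 78.5, and 41.8 per kb in GMPs, against 41.6 and 76.3. Members were below other numbered Zfp genes in KLS cells at 24 w.p.i. (83.4 against 104 per kb) and in the Pu.1 line, at 52.7 against 64.2 per kb in KLS cells and 27.2 against 35.7 in GMPs. Levels are compared within a table only, because each table was normalised by itself.

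The WT libraries at 24 w.p.i. add a further reading of Zfp979 and Zfp972. In KLS cells at 24 w.p.i. Zfp979 was 214 and 153 in the 2 WT libraries, and in GMPs at 24 w.p.i. it was 5.46 and 39.1. The GMP pair was wide apart, over 5 and 46 reads. Zfp972 was 103 and 93.3 in KLS cells and 155 and 128 in GMPs at 24 w.p.i.

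The remaining 15 members never reached a mean of 10 in a tested table, and 13 of these had 0 reads in all 36 libraries. All 4 members of the first chromosome 2 cluster (Zfp968, Zfp965, Zfp969 and Zfp966) were in this set. A median of 68.3% of the windows of these 15 occurred in another gene, against 2.85% for the 48 members that were tested. The division was not strict: Zfp953 shared only 3.5% and had no read in any library, whereas Zfp973 shared 73.2% and was tested in 3 tables. The part of shared sequence in the values of 0 was not tested.

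In untimed KLS cells, 11 of 43 members tested passed the test, of which 8 fell and 3 rose in Daxx-KO. This share of 25.6% stood beside 23.1% of all 13508 genes tested, with 12.5% of all genes lower and 10.6% higher, and beside 39 of 260 other numbered Zfp genes (15%). The member median was -0.01 on the log2 scale and that of all genes 0.03. At an unadjusted p under 0.05 there were 15 members, beside 35.7% of all genes. The largest differences were falls. All values are normalised read counts, tests are by limma on log2(value + 1) with Benjamini-Hochberg adjustment over all genes of the table, and on this scale the change of low genes is understated.

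Zfp979 (chromosome 4, 147611937 to 147642513), with 3 predicted fingers, was 56.8 and 89.6 in the WT KLS libraries and 2.19 and 0 in the Daxx-KO ones. The genotypes were far apart, with 85 reads in WT and 2 in Daxx-KO, a ratio of 0.00649 (95% counting interval 0.000773 to 0.0242). Its log2 fold change was -5.34 (SE 0.81, adjusted p = 0.002 by limma). Zfp972 (chromosome 2, 177903340 to 177925613) was 48.2 and 58.6 in WT and 1.09 and 1.52 in Daxx-KO. Here too no library of one genotype came near the other, and the log2 fold change was -4.56 (SE 0.70, adjusted p = 0.002 by limma), over 62 and 6 reads with a ratio of 0.0267 (95% counting interval 0.00943 to 0.0614).

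Other falls were smaller, and the groups were separate in each. Zfp985 (chromosome 4, 147553277 to 147585198) was 27.5 and 31 in WT and 5.47 and 2.42 in Daxx-KO (-2.68, SE 0.70, adjusted p = 0.026 by limma). Zfp941 fell from 46.4 and 32.7 to 6.56 and 7.27 (-2.34, SE 0.55, adjusted p = 0.017 by limma). The pseudogene Zfp939 (chromosome 7, 39449518 to 39477413) went from 87.7 and 84.4 to 25.2 and 15.8, a fall of 2.06 on the log2 scale with an SE of 0.38. Zfp974, the member with the most fingers, was 58.5 and 56.8 in WT and 15.3 and 14.2 in Daxx-KO, a fall of 1.90 with an SE of 0.41. For the more abundant pair on chromosome 4, both genotypes kept well-counted levels. Zfp982 (147492417 to 147513486) was 186 and 298 in WT and 127 and 99.7 in Daxx-KO, with a log2 fold change of -1.06 (SE 0.26). Zfp984 (147753974 to 147809788) was 520 and 637 in WT and 348 and 287 in Daxx-KO, with a log2 fold change of -0.86 (SE 0.16).

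The 3 members that rose in untimed Daxx-KO KLS cells did so by less. Zfp995 (chromosome 17, 21879570 to 21909926) was 29.2 and 31 in WT and 101 and 57.6 in Daxx-KO, with a log2 fold change of 1.31 (SE 0.38, adjusted p = 0.038 by limma). The genotypes did not overlap, but its call was lost without any 1 of the 4 libraries. Zfp935 rose from 131 and 134 to 223 and 225, by 0.75 (SE 0.17), and Zfp958 from 174 and 150 to 276 and 242, by 0.67 (SE 0.18). The largest positive estimate was that of Zfp963, at 0 and 13.8 in WT and 14.2 in both Daxx-KO libraries (1.99, SE 1.27, adjusted p = 0.30 by limma), where 1 WT library lay just below the Daxx-KO level. Of the 43 members, 11 had both Daxx-KO libraries above both WT libraries and 15 had both below, beside 32.9% and 29.8% of all genes.

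Daxx-KO KLS libraries of the untimed set also differed in cell markers. The 8 stem and multipotent markers summed to 8980 to 9510 in Daxx-KO against 37900 to 39500 in WT, and the 6 GMP markers to 11900 to 15500 against 692 to 1310. The mature neutrophil list summed to 466 to 1000 against 37.9 to 5400. The B lineage (148 to 167 against 836 to 1780), plasma cell (621 to 762 against 1760 to 3920) and megakaryocyte lists (57.9 to 82 against 286 to 354) were lower in both Daxx-KO libraries, and the B lineage genes Vpreb1 and Igll1 were at 0 there. The part of cell make-up in the member differences was not tested. Without the library Daxx-KO 2 no member passed the test and without Daxx-KO 1 only 1 did, with the fit then resting on a lone Daxx-KO library assumed to vary like the others.

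In untimed GMPs, 11 of 37 members passed, of which 7 fell and 4 rose in Daxx-KO. The share of 29.7% stood beside 33% of all 12744 genes, with 16.5% lower and 16.6% higher, and beside 34 of 252 other numbered Zfp genes (13.5%). The member median was -0.13 and that of all genes -0.01, and 15 members had an unadjusted p under 0.05, beside 42.2% of all genes. Zfp979 again had the largest fall, at 26 and 35.2 in WT and 0 and 0.408 in Daxx-KO. The Daxx-KO libraries held 1 read against 59 in WT, a ratio of 0.0108 (95% counting interval 0.000269 to 0.0625), and the log2 fold change was -4.72 (SE 0.87, adjusted p = 0.0031 by limma).

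Zfp972 was 50.7 and 38 in WT GMPs and 18.2 and 0.816 in Daxx-KO GMPs. The Daxx-KO libraries lay below WT but far apart, and the call was a weak one (-2.92, SE 0.96, adjusted p = 0.044 by limma), with an adjusted p of 0.35 by DESeq2. The next falls were tighter. Zfp946 of the chromosome 17 cluster was 85.9 and 99.4 in WT and 36.5 and 25.7 in Daxx-KO (-1.56, SE 0.32). Zfp939 was 78.1 and 91.3 against 32.4 and 28.6 (-1.44, SE 0.30). Zfp947, at 59.8 and 38.9 against 24.3 and 15.5, just passed (-1.27, SE 0.43, adjusted p = 0.049 by limma). In these 3 genes the genotypes did not overlap. Zfp934 moved least among the members that fell, from 291 and 342 to 205 and 177 (-0.73, SE 0.16).

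Zfp995 went the other way in GMPs than in KLS cells. It was 104 and 126 in WT GMPs and 62.9 and 37.5 in Daxx-KO GMPs, a fall of 1.22 on the log2 scale (SE 0.31, adjusted p = 0.014 by limma). Both Daxx-KO GMP libraries lay below WT, where both Daxx-KO KLS libraries lay above WT. The difference between the cell types was not tested, and the GMP call was lost without either WT library.

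The members that rose in GMPs had values of 112 or more in every library, with the limit on the reads of Zfp935 given above. Zfp971 of the second chromosome 2 cluster was 163 and 124 in WT and 292 and 285 in Daxx-KO (1.02, SE 0.18, adjusted p = 0.0024 by limma). Zfp949 was 112 and 118 against 229 and 221 (0.96, SE 0.17). Zfp935 rose from 140 and 145 to 243 and 233 (0.74, SE 0.16). Zfp933, at the end of the chromosome 4 cluster, was 250 and 187 against 308 and 343 (0.59, SE 0.17). All 4 had both Daxx-KO libraries above both WT libraries, as 9 of the 37 members did beside 33.1% of all genes, while 16 had both below beside 34.1%. The mature neutrophil markers summed to 34000 to 49100 in Daxx-KO GMPs against 4530 to 6100 in WT, whereas the GMP markers were at 67400 to 68900 against 65900 to 66000. Erythroid (30.2 to 50.7 against 101 to 109) and megakaryocyte markers (81.6 to 201 against 303 to 353) were lower in Daxx-KO. Stem markers were slightly lower (4960 to 5490 against 5550 to 5620) and plasma cell markers higher (1290 to 1330 against 948 to 978). The part of these in the member differences was not tested.

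**Figure D1:**
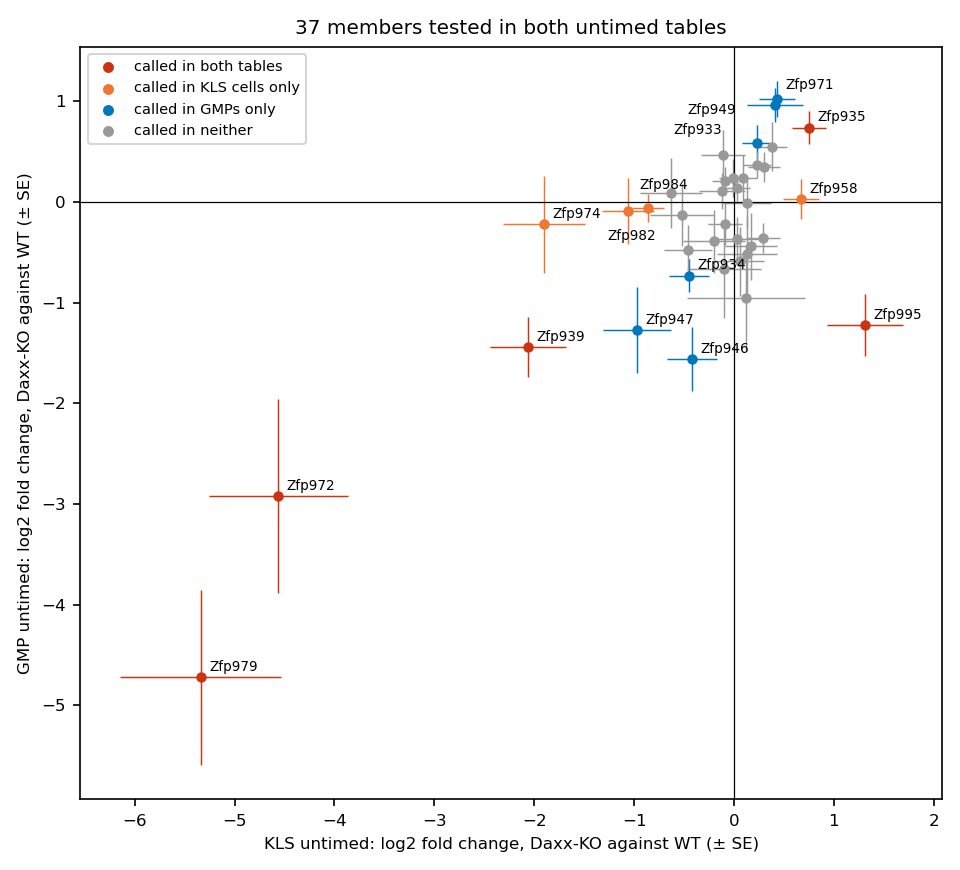
Log2 fold change of Daxx-KO against WT in untimed KLS cells (horizontal axis) and untimed GMPs (vertical axis) for the 37 members tested in both tables, 1 point per member. Members that passed the test are named and coloured, red for both tables, orange for KLS cells only and blue for GMPs only. Grey points passed in neither. Zfp979 and Zfp972 lie far below 0 on both axes, at -5.34 and -4.72 and at -4.56 and -2.92, Zfp995 lies right and below at 1.31 and -1.22, and most other members lie near the origin.

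The chromosome 4 cluster held 4 of the 8 falls in untimed KLS cells. Of its 16 members 5 were tested there. Zfp979, Zfp985, Zfp982 and Zfp984, consecutive among the members of that stretch, all fell. Zfp933 beyond them was 258 and 289 in WT against 331 and 309 in Daxx-KO (0.23). The cluster median was -1.06. Of 9 other genes tested in the same interval 3 fell and none rose, and their median was -1.20. Among the 24 genes tested within 1 Mb on either side, a comparison chosen after the values were seen, 3 rose and 2 fell and the median was 0.12.

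Among the other genes of the interval, Gm26573 is a long non-coding RNA (chromosome 4, 146153456 to 147024959). It was 354 and 663 in WT KLS cells and 32.8 and 39.1 in Daxx-KO, a fall of 3.72 on the log2 scale (SE 0.30, adjusted p = 6.4e-05 by limma). In untimed GMPs Gm26573 was 367 and 560 against 75 and 68.5 (-2.64, SE 0.22, adjusted p = 4.6e-05 by limma). The genotypes were apart in both cell types. Gm13212, a protein coding gene of the same interval (145585166 to 145625345) that shares sequence with Zfp984, was 260 and 210 in WT KLS cells and 16.4 and 23.3 in Daxx-KO, and 146 and 160 against 34.5 and 31 in GMPs. Its falls of 3.51 and 2.19 on the log2 scale passed the test in both.

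In untimed GMPs the members of this cluster divided. Of the 4 tested, Zfp979 fell and Zfp933 rose. Zfp982 was 75.5 and 136 in WT and 118 and 76.7 in Daxx-KO (-0.09), and Zfp984 was 395 and 462 against 450 and 372 (-0.06). Both pairs overlapped, whereas in KLS cells they did not. Zfp985, at 10.4 and 6.33 in WT and 2.03 and 1.63 in Daxx-KO, was below the mean of 10 and not tested. The other genes of the interval had 3 falls among 8 tested with a median of -0.79, and the 23 tested flanking genes a median of 0.14. In the remaining clusters the counts were small. The chromosome 17 cluster had 1 rise among 10 members tested in KLS cells (Zfp995) and 3 falls in GMPs (Zfp946, Zfp947 and Zfp995). In the second chromosome 2 cluster Zfp972 fell in both cell types and Zfp971 rose in GMPs. No chromosome 8 member passed in any comparison, and outside the clusters 2 rose and 3 fell among 18 tested in KLS cells and 2 rose and 2 fell among 16 in GMPs.

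**Figure D2:**
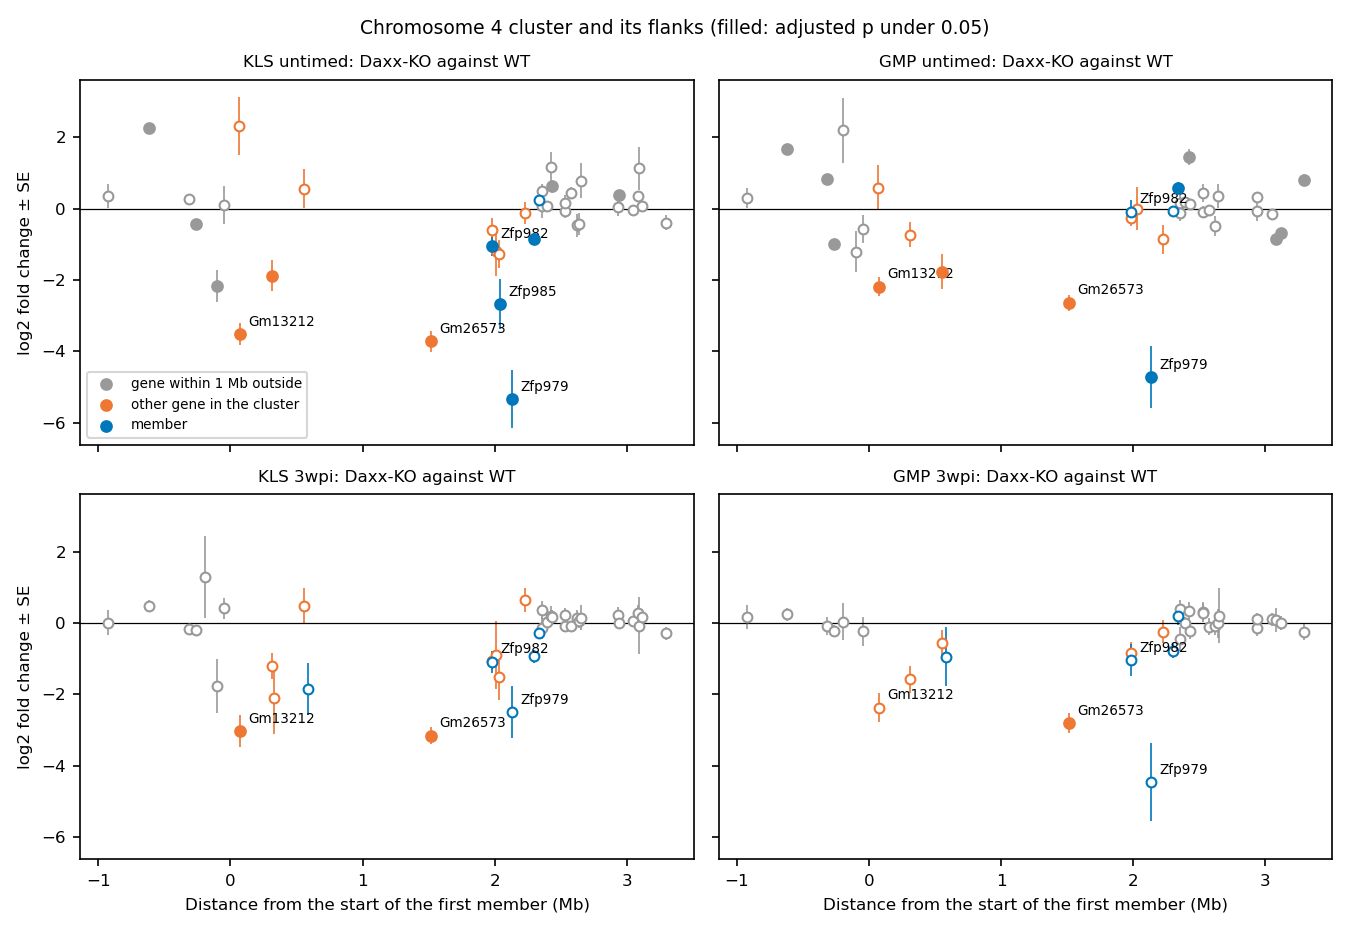
Log2 fold change of Daxx-KO against WT, with its SE as a bar, for genes of the chromosome 4 cluster and 1 Mb on either side, against the distance in Mb from the start of the first member, in 4 panels for untimed KLS cells, untimed GMPs and both cell types at 3 w.p.i. Blue points are members, orange points other genes of the interval and grey points flanking genes, filled where adjusted p was under 0.05. In the KLS panels and in GMPs at 3 w.p.i. members had medians of -1.06, -1.08 and -0.94 beside flanking medians of 0.12, 0.07 and 0.01, whereas in untimed GMPs the 4 members divided (median -0.07, flanking 0.14).

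At 3 w.p.i. no member passed the test between Daxx-KO and WT in KLS cells, where 0.257% of all 15200 genes did. None of 43 members passed by edgeR either, where 0.197% of all genes did, and 2 passed by DESeq2, where 2.25% did. At an unadjusted p under 0.05 there were 7 members, beside 11.7% of all genes. The member median was -0.18, with 31 of 43 members below 0, and that of all genes was 0. Other numbered Zfp genes had a median of -0.07. All Daxx-KO libraries were below all WT libraries for 6 members and above for 1, beside 9.16% and 9.07% of all genes.

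The members with separated groups included the same chromosome 4 genes. Zfp979 was 149, 139 and 96 in WT and 28.3, 8.97 and 37.7 in Daxx-KO KLS cells (-2.50, SE 0.73, adjusted p = 0.27 by limma and 0.029 by DESeq2). Zfp984 was 1230, 772 and 1050 in WT and 523, 472 and 579 in Daxx-KO (-0.93, SE 0.18, adjusted p = 0.093 by limma and 0.00097 by DESeq2). Zfp982 was 312, 267 and 216 against 134, 86.1 and 162 (-1.08, SE 0.31, adjusted p = 0.25 by limma). In these 3 genes every Daxx-KO library was below every WT library. Zfp987 of the same cluster was 45.4, 14.1 and 50 in WT and 3.39, 15.3 and 9.42 in Daxx-KO (-1.86, adjusted p = 0.39 by limma), so its groups overlapped in the library WT 2. Zfp985 was 32.4, 22.1 and 3 against 4.53, 2.69 and 1.05, below the level for testing, and here the unnumbered WT library was within the Daxx-KO range.

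Outside that cluster, Zfp972 was 177, 163 and 96 in WT and 101, 57.4 and 81.6 in Daxx-KO KLS cells (-0.84, adjusted p = 0.40 by limma), with 1 WT library inside the Daxx-KO range. Zfp935, higher in both untimed Daxx-KO tables, was 413, 458 and 374 in WT and 433, 353 and 313 in Daxx-KO at 3 w.p.i. (-0.19). The groups overlapped. The largest positive estimates, of Zfp937 (0.51) and Zfp983 (0.45), did not pass, and their groups overlapped as well. The 5 chromosome 4 members tested were all below 0, with a median of -1.08, against -1.20 for 9 other genes of the interval and 0.07 for 25 flanking genes. Of those 9, Gm26573 fell from 983, 732 and 883 to 114, 82.5 and 91 (-3.16, SE 0.24, adjusted p = 0.0011 by limma) and Gm13212 from 351, 270 and 340 to 30.5, 26 and 69 (-3.03, adjusted p = 0.028 by limma). The B lineage markers summed to 1560 to 33000 in Daxx-KO KLS libraries against 468 to 757 in WT. The erythroid markers were lower (76.4 to 218 against 350 to 514), as were the megakaryocyte markers (449 to 518 against 915 to 1190). The stem markers overlapped, at 38000 to 71000 against 64200 to 91200. The part of these lists in the result was not tested.

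**Figure D3:**
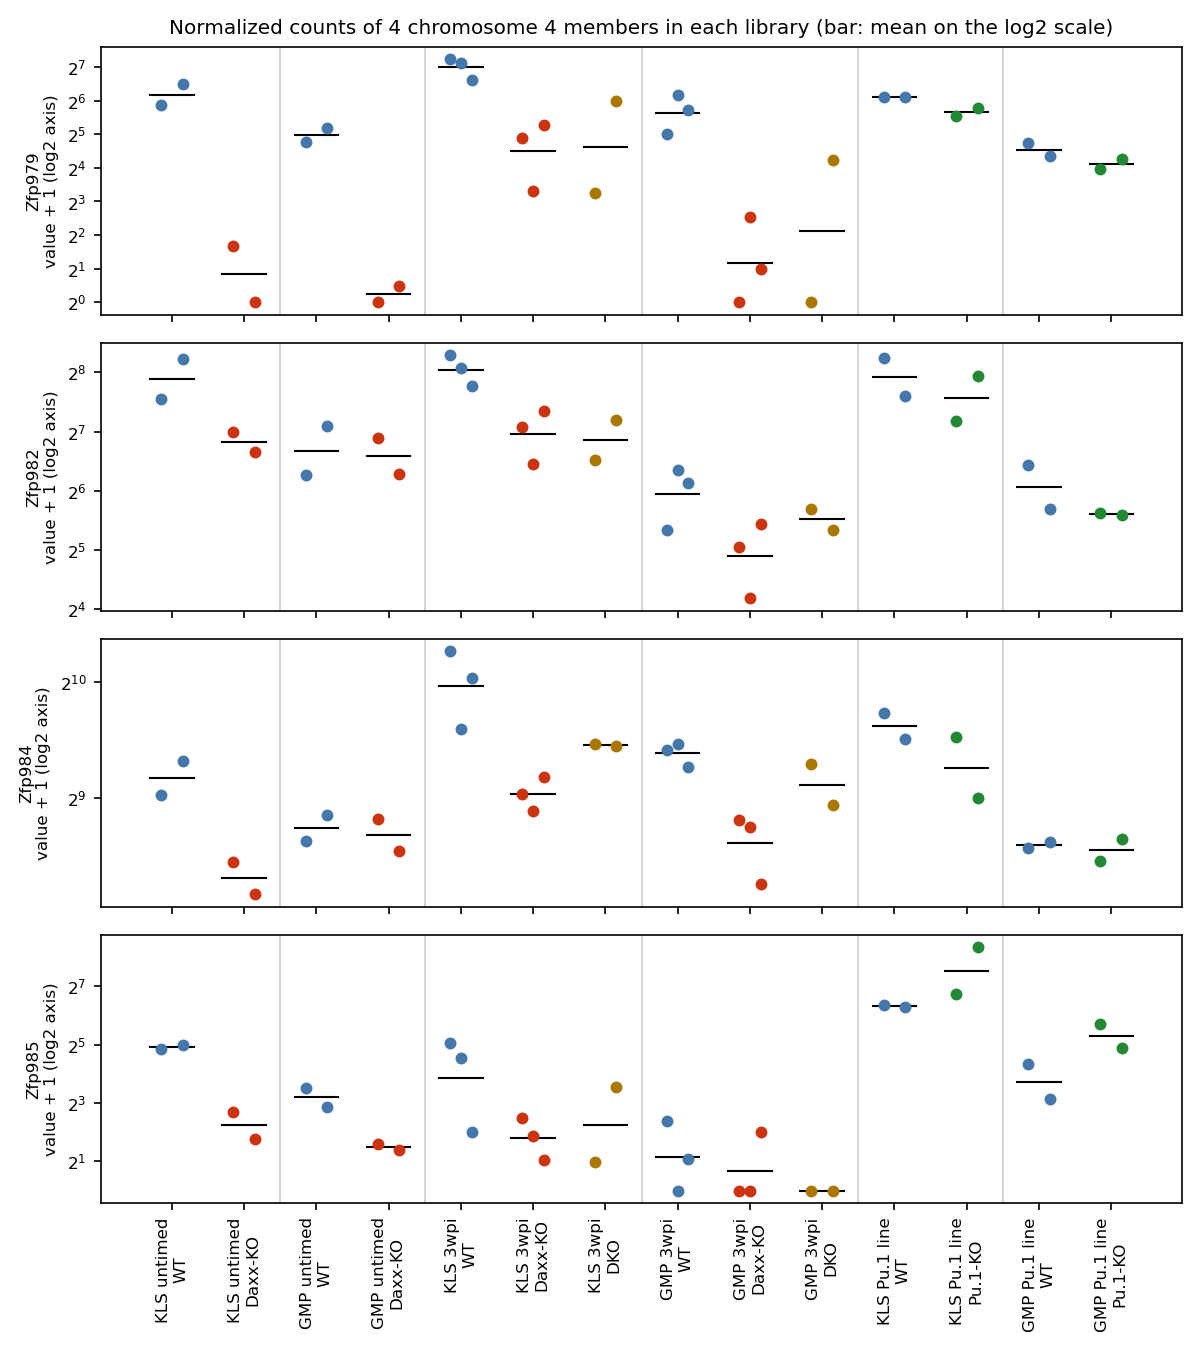
Normalised read count plus 1, on a log2 axis, of Zfp979, Zfp982, Zfp984 and Zfp985 in every library of 14 groups of cells and genotypes, 1 point per library, with a bar at the mean on the log2 scale. Zfp979 lies at 56.8 and 89.6 in untimed WT KLS cells against 2.19 and 0 in Daxx-KO, and Zfp984 is the highest of the 4 in every group. Tables were normalised separately.

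KLS libraries labelled DKO had 5 members lower and none higher than WT at 3 w.p.i. The share of 11.6% stood beside 17.6% of all genes, with 8.4% lower and 9.24% higher, and 13.5% of other numbered Zfp genes. At an unadjusted p under 0.05 there were 14 members, beside 32.5% of all genes. The member median was -0.51, that of other numbered Zfp genes -0.22 and that of all genes 0. Both DKO libraries were below all WT libraries for 21 members and above for 2, beside 23.7% and 26% of all genes. This comparison and that of Daxx-KO with WT share the WT libraries.

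The 5 members that fell came from 3 clusters. Zfp945 of the chromosome 17 cluster was 746, 662 and 552 in WT and 281 and 375 in DKO (-1.0, SE 0.21, adjusted p = 0.011 by limma). On chromosome 7, Zfp976 was 627, 486 and 391 against 234 and 281 (-0.94, SE 0.23), and Zfp975 was 718, 675 and 584 against 320 and 396 (-0.88, SE 0.22). No DKO library reached a WT library in these genes. On chromosome 4, Zfp982 was 91 and 145 in DKO (-1.18, SE 0.34, adjusted p = 0.041 by limma), below all 3 WT libraries given above and overlapping Daxx-KO. Zfp933 was 735, 664 and 743 in WT, 674, 494 and 603 in Daxx-KO and 384 and 475 in DKO. It fell by 0.74 against WT (SE 0.18, adjusted p = 0.024 by limma), and DKO libraries lay below both other genotypes.

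Zfp979 was 8.62 and 62.6 in the DKO KLS libraries. These were far apart, both below WT (-2.36, SE 0.82, adjusted p = 0.074 by limma), and against Daxx-KO the difference was 0.14 (SE 0.82). Zfp984 was 707 and 698 in DKO, between the Daxx-KO libraries and the lowest WT library, with -0.51 against WT (adjusted p = 0.11 by limma) and 0.43 against Daxx-KO (adjusted p = 0.20). Zfp964 had the next largest negative estimate, at 6.71 and 11.6 in DKO against 46.5, 32.7 and 33 in WT (-1.94, adjusted p = 0.069 by limma). The largest positive estimates were those of Zfp983 (0.65) and Zfp963 (0.62), with overlapping groups. Gm26573 was 115 and 182 in DKO (-2.56 against WT, SE 0.27, adjusted p = 0.00052 by limma).

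Against Daxx-KO, 2 of 43 members fell in DKO KLS cells and none rose, beside 15.4% of all genes, with 7.22% lower and 8.17% higher, and 10.3% of other numbered Zfp genes. Both are in the chromosome 17 cluster. Zfp945 was 601, 469 and 575 in Daxx-KO (-0.75, SE 0.21, adjusted p = 0.038 by limma). Zfp947 was 103, 71.8 and 73.2 in Daxx-KO, 24.9 and 36.6 in DKO and 69.2, 57.4 and 75 in WT, and fell by 1.40 against Daxx-KO (SE 0.39, adjusted p = 0.039 by limma). In both genes the DKO libraries were the lowest of all. The largest positive estimates were those of Zfp987 (1.01) and Zfp950 (0.53), with adjusted p = 0.46 and 0.13 by limma. The member median was -0.25 beside -0.01 for all genes, and 8 members had an unadjusted p under 0.05, beside 29.1% of all genes. Both DKO libraries were above all Daxx-KO libraries for 5 members and below for 14, beside 22.3% of all genes in either direction. In the KLS libraries labelled DKO the GMP markers summed to 106000 to 110000 and the neutrophil markers to 133000 to 164000. In WT these were at most 43400 and 26300. The stem markers were lower, at 26800 to 35100 against 64200 to 91200 in WT and 38000 to 71000 in Daxx-KO. The plasma cell markers were higher, at 17300 to 18100 against 801 to 10900 in WT and 3620 to 15400 in Daxx-KO. The erythroid markers were below WT (163 to 311 against 350 to 514). The part of these lists in the member differences was not tested. Without the library DKO 1 no member passed against WT, without DKO 2 there were 8, and without WT 1 or WT 2 there was 1.

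In GMPs at 3 w.p.i. no member passed in any of the 3 comparisons, by limma or edgeR, and DESeq2 called 1 between Daxx-KO and WT, beside 0.583% of all genes by that tool. Of all 13714 genes, 0.0948% passed between Daxx-KO and WT, 0.292% between DKO and WT and 0.0583% between DKO and Daxx-KO. At an unadjusted p under 0.05 there were 3, 1 and 1 of 39 members, beside 3.16%, 7.01% and 8.05% of all genes. Member medians were -0.07, -0.1 and -0.06, and those of all genes -0.01 in each. Groups were fully apart, higher and lower, for 3 and 4 members between Daxx-KO and WT (4.64% and 3.46% of all genes), for 2 and 5 between DKO and WT (10.1% and 8.41%) and for 3 and 4 between DKO and Daxx-KO (10.7% and 9.98%). These GMP columns carry the animal numbers of the KLS libraries. In Daxx-KO GMPs the B lineage markers summed to 706 to 9410 against 202 to 613 in WT, the erythroid markers to 142 to 200 against 289 to 858 and the megakaryocyte markers to 485 to 589 against 608 to 1140. The neutrophil markers overlapped, at 37400 to 272000 against 52600 to 281000. In DKO GMPs the stem markers were lower than in WT (5640 to 5870 against 6940 to 12000). The plasma cell markers were higher there (3030 to 3460 against 1330 to 2450). The part of these lists in the member values was not tested.

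Zfp979 was nonetheless low in Daxx-KO GMPs at 3 w.p.i. It was 31.2, 70.6 and 51.1 in WT, 0, 4.75 and 0.988 in Daxx-KO and 0 and 17.8 in DKO. Every Daxx-KO and DKO library was below every WT library. The log2 fold change of Daxx-KO against WT was -4.45 (SE 1.10, adjusted p = 0.56 by limma and 0.012 by DESeq2), over 6 and 157 reads, a ratio of 0.0373 (95% counting interval 0.0135 to 0.083), and that of DKO against WT was -3.51 (SE 1.23, adjusted p = 0.48 by limma). Zfp984 was 683, 707 and 616 in WT, 449, 430 and 306 in Daxx-KO and 625 and 491 in DKO. Daxx-KO lay below WT (-0.77, SE 0.20, adjusted p = 0.62 by limma) and below both DKO libraries, while DKO and WT overlapped. Zfp982 was 39.5, 80.3 and 68.6 in WT and 32.2, 17.1 and 42.5 in Daxx-KO (-1.04, adjusted p = 1 by limma), with an overlap of 1 library.

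The remaining extremes in these GMPs were small or overlapping. Zfp974 (0.48) and Zfp959 (0.42) had the largest positive estimates between Daxx-KO and WT, and Zfp937 (0.64) and Zfp963 (0.58) between DKO and WT. Zfp987 was 21.8, 19.4 and 8.71 in WT and 7.1 and 0.986 in DKO (-2.04, adjusted p = 0.72 by limma). Against Daxx-KO, Zfp987 (-1.1) and Zfp956 (-0.66) were lowest and Zfp979 (0.94) and Zfp963 (0.69) highest in DKO. In the chromosome 4 cluster, 4 of 5 members tested were below 0 in Daxx-KO, with a median of -0.94 beside -1.22 for 6 other genes of the interval and 0.01 for 23 flanking genes. Gm26573 was 321, 437 and 308 in WT, 52.7, 52.3 and 44.5 in Daxx-KO and 171 and 109 in DKO. It fell in Daxx-KO (-2.80, SE 0.27, adjusted p = 0.0051 by limma), and in DKO it was between the other genotypes (-1.35 against WT, adjusted p = 0.16).

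In the Pu.1 line no member passed in KLS cells, where 0.81% of 23459 genes did and 6 of 48 members had an unadjusted p under 0.05, beside 25.9% of all genes. By edgeR and by DESeq2 1 member passed, Zfp956 in both, beside 8.18% and 5.78% of all genes by these tools. Zfp956 was 381 and 406 in WT and 158 and 53.1 in Pu.1-KO (-2.09, SE 0.62, adjusted p = 0.056 by limma, 0.043 by edgeR and 0.044 by DESeq2). Zfp954 was 258 and 230 against 124 and 45.4 (-1.68, adjusted p = 0.11 by limma). In both genes the Pu.1-KO libraries were below WT and unlike each other. At the other end Zfp986 was 38 and 16.9 in WT and 74.9 and 96.6 in Pu.1-KO (1.71, adjusted p = 0.18 by limma), with 70% of its windows shared with other genes. Zfp963, at 32.5 and 1.69 against 22.2 and 43.5 (1.76), overlapped and changed sign without 1 WT library.

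Both Pu.1-KO libraries were above both WT libraries for 6 members and below for 17, beside 33.7% and 31.9% of all genes. The member median of -0.34 in Pu.1-KO KLS cells stood beside -0.62 for other numbered Zfp genes and 0.12 for all genes. With TMM scaling, these were -0.2 for members and 0.26 for all genes, so the members stayed below the middle of all genes under either scaling. On chromosome 4, Zfp979 was 67.8 and 67.5 in WT and 45.6 and 54.4 in Pu.1-KO (-0.43), and the cluster median over 8 members was 0.05. Gm26573 was 750 and 749 against 944 and 1510 (0.67, adjusted p = 0.42 by limma). The stem markers summed to 14600 to 35800 in Pu.1-KO KLS cells against 58700 to 70700 in WT. Erythroid (248 to 1090 against 1670 to 2720) and megakaryocyte markers (479 to 639 against 2020 to 3400) were lower too. Neutrophil (57100 to 117000 against 22100 to 39700) and B lineage markers (5530 to 13900 against 4080 to 4150) were higher. The part of these lists was not tested.

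In GMPs of the Pu.1 line 2 of 45 members passed, 1 lower and 1 higher, a share of 4.44% beside 17.6% of 19337 genes, with 8.49% lower and 9.15% higher, and 12.8% of other numbered Zfp genes. At an unadjusted p under 0.05 there were 6 members, beside 34% of all genes. Zfp932 was 94.2 and 132 in WT and 32.3 and 49.7 in Pu.1-KO, a fall of 1.45 on the log2 scale (SE 0.46, adjusted p = 0.017 by limma). Zfp936 of the chromosome 7 cluster was 51.8 and 53.5 in WT and rose to 157 and 103 (1.25, SE 0.43, adjusted p = 0.027 by limma). The genotypes were apart in both. Zfp936 was 164 and 201 against 278 and 676 in Pu.1-KO KLS cells (1.25, adjusted p = 0.16 by limma). The member median in GMPs was -0.33, close to -0.32 for other numbered Zfp genes and below the 0 of all genes. Both Pu.1-KO libraries were above both WT libraries for 6 members and below for 21, beside 31.5% and 33.5% of all genes.

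Zfp972 was 26.5 and 36.6 in WT GMPs of the Pu.1 line and 3.08 and 19.7 in Pu.1-KO (-1.81, SE 0.86, adjusted p = 0.12 by limma), with both Pu.1-KO libraries lower but unequal. Zfp985 (1.55) and Zfp941 (1.36) had the largest positive estimates, at 19 and 7.83 against 50.8 and 28.3 and at 5.29 and 14.4 against 16.2 and 36. Neither passed. Zfp979 was 25.4 and 19.6 in WT and 14.6 and 18 in Pu.1-KO (-0.44), and the chromosome 4 cluster median over 7 members was -0.44. Gm26573 was 369 and 204 against 470 and 363 (0.59). The neutrophil markers were at 152000 to 155000 in Pu.1-KO GMPs against 27500 to 34200 in WT. The B lineage markers were higher as well, at 2850 to 4880 against 1370 to 1440. The GMP markers (104000 to 185000 against 262000 to 285000) and stem markers (5090 to 6060 against 8040 to 8980) were lower. The part of these lists was not tested. Without the library Pu.1-KO b 8 members passed, and without any other library none did.

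**Figure D4:**
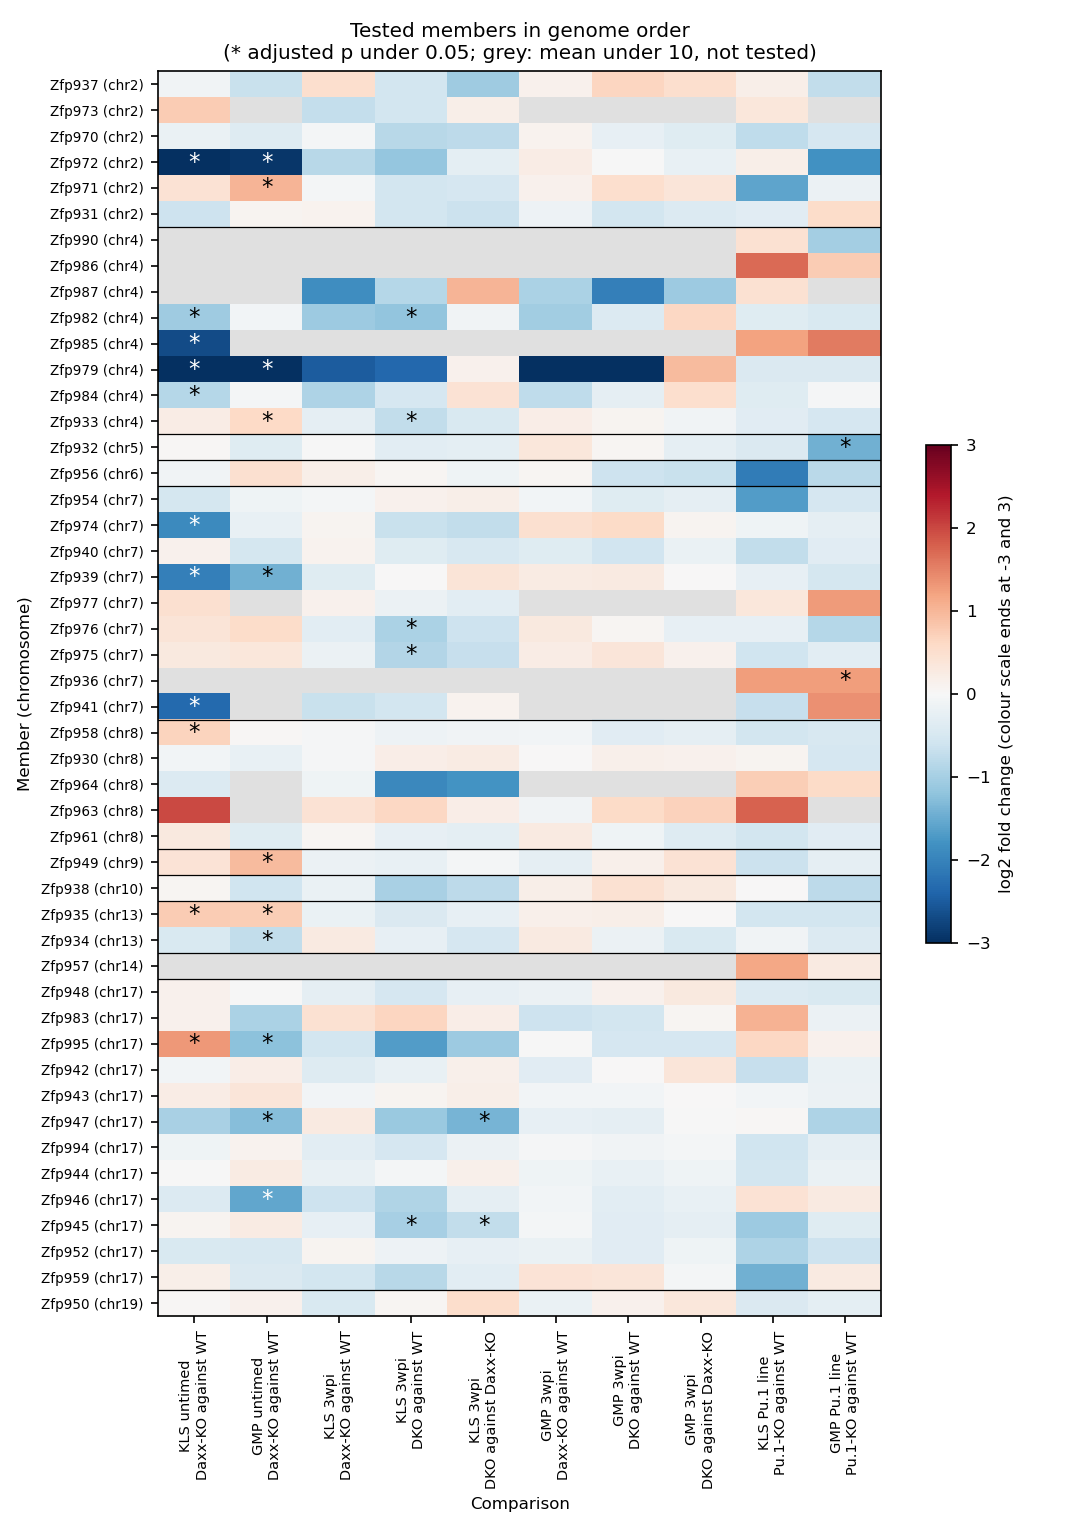
Heat map of the log2 fold change of the 48 members tested in at least 1 table (rows) in the 10 comparisons (columns), blue for lower and red for higher with the colour scale ending at 3 in either direction, an asterisk where the member passed the test and grey where it was not tested. The dark blue cells of Zfp979 and Zfp972 in the untimed columns stand out, and the 3 GMP columns at 3 w.p.i. and the KLS column of the Pu.1 line hold no asterisk.

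Across the 10 comparisons 22 members passed at least once and 26 of the 48 tested never did. Members lower in at least 2 tables were Zfp939, Zfp972 and Zfp979 in both untimed cell types, Zfp982 in untimed Daxx-KO and in DKO KLS cells, and Zfp947 in untimed GMPs and in DKO against Daxx-KO KLS cells. Zfp935 was the only member higher in 2 tables. Zfp933 and Zfp995 passed in both directions, Zfp933 as a rise in untimed GMPs and a fall in DKO KLS cells.

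Partners of KRAB zinc finger proteins and of H3.3 silencing were counted from a list of 32 genes, of which 30 were tested. In untimed KLS cells 7 rose in Daxx-KO and 1 fell, a share of 26.7% beside the 23.1% of all genes. Trim28, the KRAB corepressor, rose by 0.52 (SE 0.13, adjusted p = 0.022 by limma), and Atf7ip, a partner of Setdb1, by 0.72 (adjusted p = 0.001). Chaf1b, a subunit of the replication-coupled histone chaperone CAF-1, fell by 0.75 (adjusted p = 0.0061 by limma). In untimed GMPs 4 rose and 8 fell, 40% beside the 33% of all genes. Trim28 fell there by 0.55 (adjusted p = 0.0033 by limma). Uhrf1, which guides maintenance DNA methylation, fell by 1.49 (adjusted p = 5.4e-05 by limma), and Hells, a chromatin remodeller, fell by 1.42 (adjusted p = 3.1e-05), while Atf7ip rose by 0.73 and Atrx by 0.50.

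At 3 w.p.i. no partner passed between Daxx-KO and WT in KLS cells, nor in any GMP comparison. In DKO KLS cells 2 of 30 passed against WT, 6.67% beside 17.6% of all genes: H3f3b, a gene for H3.3, rose (0.67) and the methyltransferase Dnmt3b fell (-0.62). Against Daxx-KO 3 passed, 10% beside 15.4% of all genes. Here Dnmt3b (-0.94) and the HP1 gene Cbx1 (-0.61) fell and Fam208a, of the HUSH complex, rose (0.64). In Pu.1-KO GMPs 7 partners fell and none rose, 23.3% of the 30 beside 8.49% of all genes lower. Among them were Trim28 (-0.81), Setdb1 (-0.73) and Cbx5 (-0.81). In Pu.1-KO KLS cells none passed, though all 30 were below 0 with a median of -1.06 beside the 0.12 of all genes.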

How the data were processed

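The deposited values were normalised read counts per gene, a signal made by the authors by dividing counts by a size factor for each library, 1 table per cell type and experiment. The labels' processing notes name CASAVA 1.8.4, cutadapt 1.13, STAR 2.5.3 and DESeq2 1.16.1, and the study aligned to mm10 with GENCODE M14. Strand use in counting was not given in the sources used here. The study's methods name the Ovation SoLo kit for libraries from transplanted mice and a SMARTer stranded pico-input kit for the steady-state ones, whereas the labels name Ovation SoLo throughout. Every value was a whole number of reads times a constant of the library (tolerance 0.01), so reads could be recovered.

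Of 111 columns of values in the files, 36 were tied to a group by the labels and 75 were not used, among them repeat columns and those of the MPP, LTHSC and Daxx-deleted 24 w.p.i. libraries, which were not analysed here. Members were the symbols Zfp9 with 2 further digits, and Zfp951 was left out. The members, lists and clusters were chosen with earlier results of these data known.

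Each table was fitted by itself with limma 3.58.1 (R 4.3.3; lmFit, eBayes with a mean trend) on log2(value + 1), with all mapped libraries in 1 fit and genes with a mean of 10 or more. Adjusted p is by Benjamini-Hochberg over all genes tested in the table, with a call under 0.05. edgeR 4.0.16 (quasi-likelihood) and DESeq2 1.42.0 on recovered reads, other pseudocounts (0.5 and 5), filters (none and a mean of 50), TMM scaling, replicate blocks and leaving out each library were the alternatives. The scripts were tested on simulated counts. Intervals of read ratios are exact, and cover counting error only, since no molecular identifiers are named.

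Named were members that passed in a comparison (at most the 10 largest changes each way), the 2 largest rises and falls, called or not, the 5 highest means per table, clusters of 3 or more members at most 500 kb apart, and members called alike in 2 or more tables. The lists set beside them were other numbered Zfp genes, silencing partners, neighbours within the clusters and cell type markers. Exon lengths, shared windows of 100 bases and fingers (C, 2 to 4 residues, C, 12 residues, H, 3 to 5 residues, H) were computed from GENCODE M21 transcripts.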

Additional observations from a re-analysis of the deposited data

Results flagged for a closer look

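A few members lay on opposite sides of WT in the 2 cell types, every KLS library of the altered genotype moving one way and every GMP library the other. None of these differences between cell types was tested. Groups fully apart were common among all genes. In the untimed set 32.9% of all genes were apart upward and 29.8% downward in KLS cells, and 33.1% and 34.1% in GMPs. In the Pu.1 line these shares were 33.7% and 31.9% in KLS cells and 31.5% and 33.5% in GMPs, and those at 3 w.p.i. are given above. The share of all genes apart in opposite directions in the 2 cell types was not counted. In the untimed libraries Zfp995 differed between Daxx-KO and WT by 1.31 on the log2 scale in KLS cells and -1.22 in GMPs, and it passed the test in each. Zfp959 differed by 0.17 and -0.44, Zfp961 by 0.29 and -0.36, and Zfp956 by -0.11 and 0.47 in the same order, and none of these passed in either cell type. At 3 w.p.i. Zfp959 lay on the opposite sides, at -0.54 in KLS cells and 0.42 in GMPs of Daxx-KO. Zfp971 in the libraries labelled DKO was at -0.55 and 0.5 against WT. In the Pu.1 line Zfp941 was at -0.69 in KLS cells and 1.36 in GMPs, and Zfp931 at -0.35 and 0.55.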

How the results depend on the processing

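With 2 or 3 libraries per group, counts of members depended on single libraries, and a group left with 1 library was assumed to vary like the others. Leaving out each library in turn gave 0 to 12 members called in untimed KLS cells (11 with all; 0 without Daxx-KO 2 and 1 without Daxx-KO 1), 2 to 11 in untimed GMPs (11 with all; 2 without WT 2 and 7 without WT 1), 0 to 8 for DKO against WT (5 with all) and 0 to 3 for DKO against Daxx-KO (2 with all; 0 without Daxx-KO 1, Daxx-KO 3 or DKO 1) in KLS cells, 0 to 6 in Pu.1-KO KLS cells (0 with all; 6 without Pu.1-KO a) and 0 to 8 in Pu.1-KO GMPs (2 with all). The other comparisons at 3 w.p.i. stayed at 0. Zfp979 kept its call in untimed GMPs under every alternative run and lost it in untimed KLS cells only without Daxx-KO 2 (-4.50, adjusted p = 0.068 by limma). Zfp979 in DKO against Daxx-KO GMPs turned from 0.94 to -1.17 without DKO b and was 3.06 without DKO a, and Zfp963 in Pu.1-KO KLS cells turned from 1.76 to -0.06 without WT b and was 3.58 without WT a.

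Without a filter on low values 6 members passed in untimed KLS cells and 0 for DKO against Daxx-KO, and with a mean of 50 or more 6 passed in untimed KLS cells, where fewer members are tested, and 1 in Pu.1-KO KLS cells. DESeq2 gave 2 members for Daxx-KO in KLS cells and 1 in GMPs at 3 w.p.i., 5 for DKO against Daxx-KO and 1 in Pu.1-KO KLS cells. edgeR gave 1 for DKO against Daxx-KO, 1 in Pu.1-KO KLS cells and 1 in Pu.1-KO GMPs. TMM scaling gave 1 in Pu.1-KO KLS cells, where it moved the median of all genes from 0.12 to 0.26. The cause of these shifts was not tested. Of all counts recomputed, 99 stayed within 1.5 times and 30 moved, and of the values of single members 642 kept direction and side of the threshold, 92 fell below it, 13 passed newly and 2 turned. The members in clusters were 29 at a distance of 200 kb and 43 at 1000 kb.

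The deviations of same-numbered libraries from their group means had correlations of -0.44 to 0.09. In a group with 2 numbered libraries these deviations are equal and opposite, so same-numbered and crossed correlations mirror each other. The values therefore cannot decide whether the numbers pair the libraries. With the replicate block 11 members passed in untimed KLS cells, 10 in untimed GMPs (13 with the numbers crossed, chosen after seeing the data), 0 for Daxx-KO, 3 for DKO against WT and 0 for DKO against Daxx-KO in KLS cells at 3 w.p.i., where the unnumbered WT library was dropped. In GMPs at 3 w.p.i., with the numbers the KLS titles give to the same animals (chosen after seeing the data), the block gave 0 in each comparison. No paired analysis was possible for the Pu.1 line because its columns carry no replicate number.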
